A study of Mus musculus and Homo sapiens with 19 samples.

Results

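Cholesterol and fatty acid synthesis was followed through 31 genes, chosen by symbol because their products make, regulate or carry sterols, or make and modify fatty acids. All 31 had an entry among the 24421 gene symbols of the mouse knockdown counts and among the 55573 genes of the mouse co-culture counts, and 30 had one among the 57992 genes of the human counts, where Scd2 was not found. Cells build sterols from acetyl-CoA through mevalonate, farnesyl diphosphate and squalene, and build fatty acids from the same acetyl-CoA through malonyl-CoA. The genes of both routes are switched on by the transcription factors SREBF1 and SREBF2, which SCAP escorts out of the endoplasmic reticulum when sterols are scarce and which INSIG1 and INSIG2 hold back when sterols are plentiful. Cultured tumour cells rely on these routes for membranes, and oxysterols formed when cholesterol is abundant switch on the exporter gene Abca1.

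The libraries were made to ask how breast cancer cells differ with the level of PHGDH, the enzyme that starts serine synthesis, and how they differ after contact with endothelial cells. The mouse mammary tumour line 4T1 carried the pLKO.1 vector with either an shRNA against PHGDH (shPHGDH, 3 libraries) or a scrambled shRNA (shSCR, 3 libraries). The human breast cancer line MDA-MB-231 was sampled as 3 libraries labelled PHGDH-overexpressing, made with PHGDH cDNA in pLHCX, and 3 control libraries, for which the labels name no vector. Titles call these controls CTRL, while the headers of their counts call them SCR. The co-culture libraries were 4T1 and a further mouse mammary tumour line, EMT6.5, each grown with the mouse endothelial line Bend3, the Bend3 cells of each co-culture, and 4T1, EMT6.5 and Bend3 grown alone, with 1 library each. Sorting by FACS is described for the co-cultures and not for the cells grown alone, so contact and sorting cannot be told apart. Whether replicates came from separate cultures is not stated, so the p-values cover no more than the scatter among these libraries, which may be technical, and whether a line is 1 clone is not stated either.

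Gene counts summed to between 12696658 and 20511658 per library in the knockdown, between 19515146 and 23765884 in MDA-MB-231 and between 4268428 and 7672654 in co-culture. Phgdh averaged 20.9 ± 0.746 CPM in shPHGDH cells and 168 ± 4.58 CPM in shSCR cells (SD, n = 3 each), where CPM is the usual count per library of a fixed common size, scaled here by the TMM factors of edgeR. In MDA-MB-231 the target went against its label: PHGDH averaged 5.41 ± 0.773 CPM in the libraries labelled PHGDH-overexpressing and 16.5 ± 1.57 CPM in the controls (SD, n = 3 each), so every direction given for MDA-MB-231 refers to the label only. In the knockdown, 6 of 7 epithelial markers reached 1 CPM in every library, and their sum was 3140 to 3159 CPM in shPHGDH and 3169 to 3256 CPM in shSCR cells. In MDA-MB-231, Krt8 and Krt18 carried the epithelial sum and Cdh1 was near 0. In EMT6.5 both Cdh1 and Epcam were under 1 CPM while the fibroblast collagens were high. Still, 3 of the 7 epithelial markers reached 1 CPM in EMT6.5, and the sum of the 7 was 552 CPM alone and 502 CPM with Bend3. Bend3 libraries held 7965 to 10930 CPM of 10 endothelial markers. In such bulk libraries fewer cells of a type and less RNA per cell cannot be told apart.

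Promoter sequence is given for 3 members chosen for their place in the knockdown: Hmgcs1 and Sc5d were among the members that rose most, and Acat2 was not called. Each sequence is the 250 bases upstream of the start of the RefSeq transcript listed first for the gene, on mouse build GRCm38.p6, in lower case with CCAAT or its reverse complement ATTGG, the NF-Y box, and TCACNCCAC, a sterol regulatory element core, in capitals. The windows are chr13:119690101-119690350 (plus strand) for Hmgcs1, chr9:42264301-42264550 (minus strand) for Sc5d and chr17:12960726-12960975 (minus strand) for Acat2.
Hmgcs1: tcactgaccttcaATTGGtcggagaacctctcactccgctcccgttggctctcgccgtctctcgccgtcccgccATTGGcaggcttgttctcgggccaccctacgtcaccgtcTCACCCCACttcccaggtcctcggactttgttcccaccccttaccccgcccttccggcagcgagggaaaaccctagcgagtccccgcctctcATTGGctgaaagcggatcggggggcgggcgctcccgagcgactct
Sc5d: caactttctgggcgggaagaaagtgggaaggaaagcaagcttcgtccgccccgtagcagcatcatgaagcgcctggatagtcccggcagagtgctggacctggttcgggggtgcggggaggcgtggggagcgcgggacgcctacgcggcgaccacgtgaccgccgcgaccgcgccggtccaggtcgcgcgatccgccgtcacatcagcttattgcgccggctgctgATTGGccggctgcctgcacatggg
Acat2: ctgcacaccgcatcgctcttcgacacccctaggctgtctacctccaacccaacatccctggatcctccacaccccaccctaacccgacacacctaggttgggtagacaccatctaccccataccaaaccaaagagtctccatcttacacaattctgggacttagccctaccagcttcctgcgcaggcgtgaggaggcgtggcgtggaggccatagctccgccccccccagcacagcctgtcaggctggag
The Hmgcs1 promoter held the sterol regulatory element core 137 bases before the start, and 3 NF-Y boxes around it. Promoters were found for 25 of the 31 members. None was found for Scd1, Fdft1, Sqle, Scd2, Fdps and Stard4, so Scd1, Fdft1 and Sqle, which were among the members that rose most, are not covered below. On either strand, TCACNCCAC was in 1 of the 25, against 1.04% of 27025 RefSeq promoters, CCAAT was in 18 of the 25, against 34.5%, and GGGCGG, the Sp1 box, was in 18 of the 25, against 32.9%. NF-Y boxes did not follow the knockdown calls gene by gene: Mvk, not called, held 5, and Mvd and Ebp, not called, held 2 each. Acly and Elovl6, which rose, held none. A match is only a run of letters, and its absence from a window says only that the letters are not there.

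Knockdown of PHGDH was accompanied by higher RNA of most of the sterol pathway in 4T1 cells. Of 30 members tested, 20 rose, 2 fell and 8 were not called by edgeR's quasi-likelihood test at a Benjamini-Hochberg adjusted p under 0.05. Over all genes tested, 30.1% were called higher and 29.6% lower. The median log2 fold change was 0.19 over the members and -0.01 over all genes tested. In 19 members every shPHGDH library lay above every shSCR library, against 31.7% of all genes, in 2 every one lay below, against 31.5%, and in 9 the groups overlapped. Abca1 was not tested, since its 6 counts in shPHGDH and 3 counts in shSCR cells, summed over the libraries, were too few.

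**Figure D1:**
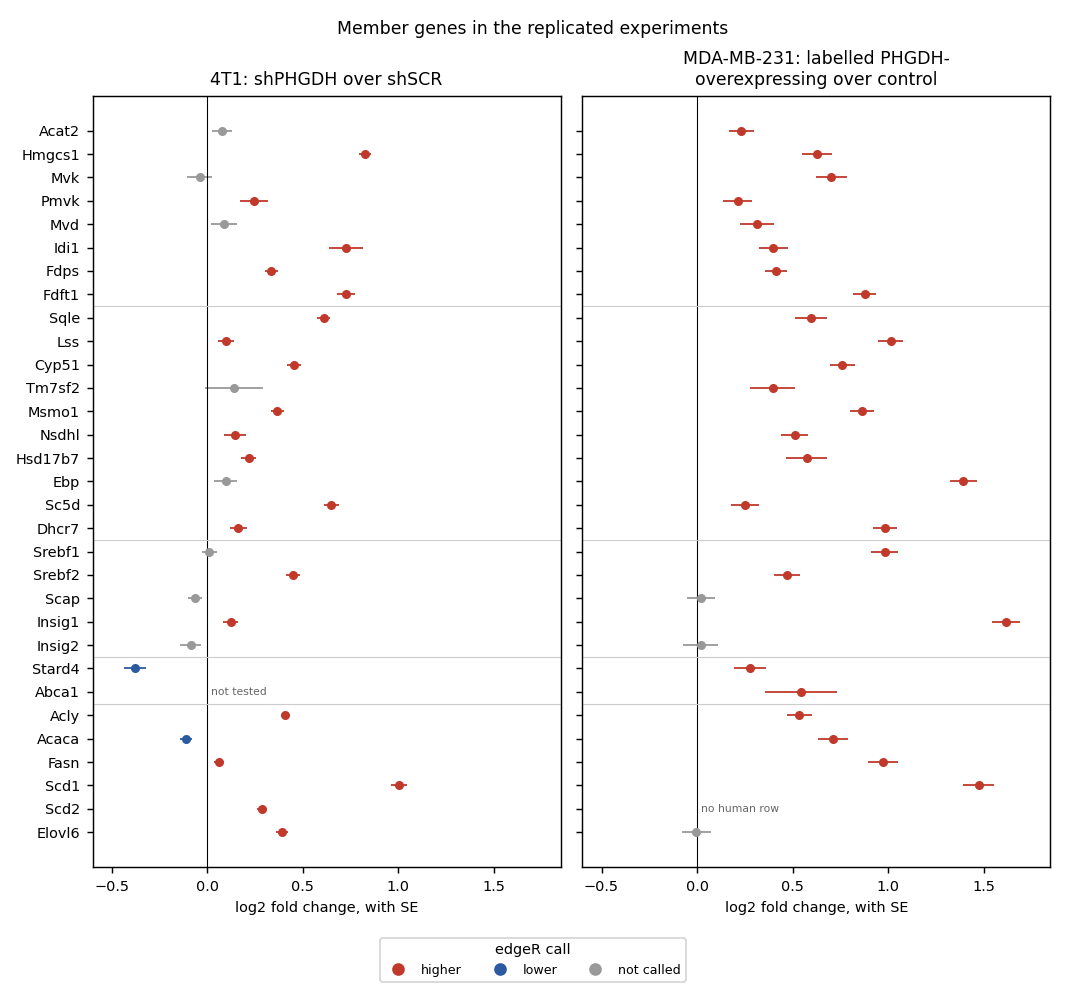
Log2 fold changes of the members with their SE, shPHGDH over shSCR in 4T1 on the left and labelled PHGDH-overexpressing over control in MDA-MB-231 on the right, with members ordered by role and coloured by the edgeR call (n = 3 libraries per group). Most points lie right of 0 in both panels, up to 1.00 for Scd1 in 4T1 and 1.62 for INSIG1 in MDA-MB-231.

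Between acetyl-CoA and squalene, 5 of 8 members rose, led by Hmgcs1, Fdft1 and Idi1. Hmgcs1, which makes the precursor of mevalonate, was at 288, 291 and 276 CPM in shPHGDH and at 162, 158 and 161 CPM in shSCR cells. Fdft1, squalene synthase, was at 68.0, 77.0 and 68.2 CPM in shPHGDH and at 42.3, 43.5 and 42.3 CPM in shSCR cells. Idi1, which isomerises isopentenyl diphosphate, was at 22.4, 19.4 and 19.22 CPM in shPHGDH and at 10.9, 11.6 and 14.1 CPM in shSCR cells. None of the 3 overlapped between groups, and only Idi1 had an shSCR library, the third, that stood above the rest of its group. The log2 fold change was 0.83 for Hmgcs1 (SE 0.031, edgeR adjusted p = 9.68e-19), 0.73 for Fdft1 (SE 0.048, adjusted p = 3.85e-13) and 0.73 for Idi1 (SE 0.090, adjusted p = 8.03e-08). Fdps, which makes farnesyl diphosphate, rose by 0.34, and Pmvk, a mevalonate kinase of the middle of the route, by 0.25. The remaining enzymes of this stretch were not called: Acat2, the thiolase of the first step, differed by 0.08, Mvk by -0.04 and Mvd by 0.09.

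Between squalene and cholesterol, 8 of 10 members rose, led by Sqle and Sc5d. Sqle, the epoxidase that commits squalene to sterols, was at 273, 262 and 261 CPM in shPHGDH and at 175.5, 183 and 163.5 CPM in shSCR cells. Sc5d, a late sterol desaturase, was at 93.9, 88.9 and 90.0 CPM in shPHGDH and at 55.3, 58.1 and 60.0 CPM in shSCR cells. In both genes the groups stood clear of each other, with log2 fold changes of 0.61 for Sqle (SE 0.035, edgeR adjusted p = 1.55e-14) and 0.65 for Sc5d (SE 0.040, adjusted p = 7.17e-14). Cyp51, the lanosterol demethylase, rose by 0.46 and Msmo1, the methylsterol oxidase after it, by 0.37. Hsd17b7, Dhcr7, Nsdhl and Lss rose by 0.22, 0.16, 0.15 and 0.10. Nsdhl overlapped between groups, and its edgeR call was lost without shPHGDH replicate 1, shSCR replicate 2 or shSCR replicate 3 (adjusted p of 0.0745 to 0.139). The call of Lss was lost without shSCR replicate 3 or any of the shPHGDH replicates (adjusted p of 0.0509 to 0.240). Ebp differed by 0.10 and Tm7sf2, the least abundant enzyme of this stretch at about 4.02 CPM in shPHGDH and 3.72 CPM in shSCR cells, by 0.14, neither called.

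Among the regulators, Srebf2, the main factor of sterol synthesis, rose, and Srebf1, the main factor of fatty acid synthesis, was not called. Srebf2 was at 233, 232 and 234 CPM in shPHGDH and at 178.5, 177 and 158 CPM in shSCR cells, a log2 fold change of 0.45 (SE 0.037, edgeR adjusted p = 3.05e-11) with no overlap. Srebf1 averaged 94.4 ± 3.91 CPM in shPHGDH and 94.2 ± 4.59 CPM in shSCR cells (SD, n = 3 each), and its log2 fold change of 0.01 was not called. Insig1 rose by 0.12 (edgeR adjusted p = 0.00752), a call lost with library totals (0.08, adjusted p = 0.0664). Scap and Insig2 differed by -0.07 and -0.09 and were not called. Stard4, which carries cholesterol between membranes, fell, at 31.3, 33.9 and 32.8 CPM in shPHGDH and 45.01, 43.4 and 39.1 CPM in shSCR cells, a log2 fold change of -0.38 (SE 0.060, adjusted p = 4.52e-06).

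Of the 6 fatty acid genes 5 rose and 1 fell, and the desaturase Scd1 rose most. Scd1, a desaturase that makes oleate, was at 102.5, 98.6 and 100.5 CPM in shPHGDH and at 53.0, 51.2 and 47.0 CPM in shSCR cells. No library overlapped, and the log2 fold change of 1.00 (SE 0.042, edgeR adjusted p = 1.32e-17) was the largest of the tested members. Its neighbour Scd2 rose by 0.29 and averaged 1549 ± 47.5 CPM in shPHGDH and 1270 ± 44.7 CPM in shSCR cells (SD, n = 3 each). Acly, which releases acetyl-CoA from citrate, rose by 0.41, and Elovl6, which lengthens palmitate, by 0.39. Fasn, the fatty acid synthase, averaged 1523 ± 37.3 CPM in shPHGDH and 1460 ± 49.2 CPM in shSCR cells, with overlapping libraries and a log2 fold change of 0.06 (edgeR adjusted p = 0.0447). Its call was lost without replicate 1 or 3 of either group (adjusted p of 0.060 to 0.265) and with the replicate block (adjusted p = 0.0932). Acaca, acetyl-CoA carboxylase, fell by 0.11.

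**Figure D2:**
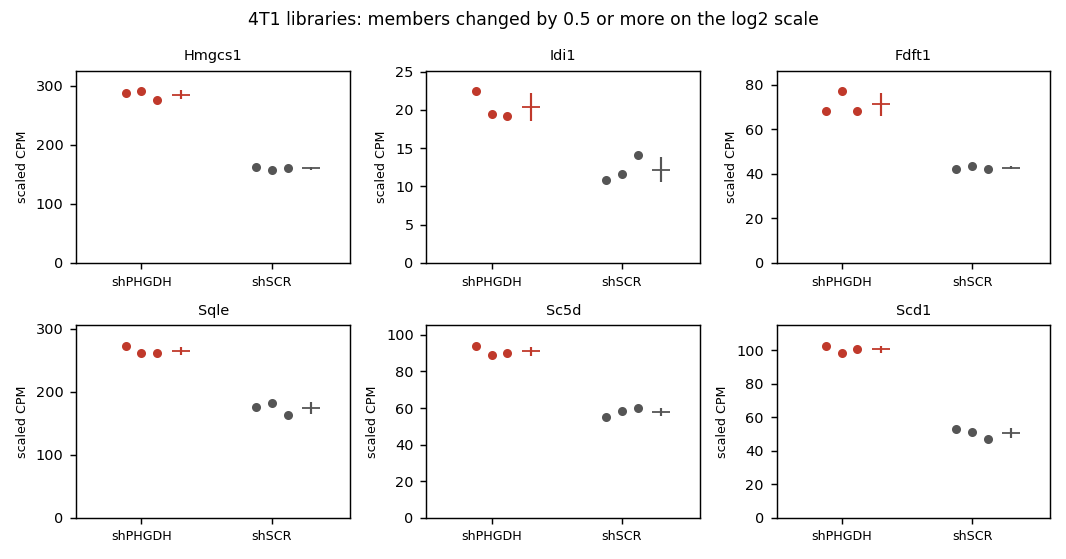
Scaled CPM of the 6 members changed by 0.5 or more on the log2 scale in each of the 3 shPHGDH (left) and 3 shSCR (right) 4T1 libraries, as points, with the mean and SD as a cross beside them. The groups are separate in all 6 panels, by a factor of 2.00 in Scd1 and 1.77 in Hmgcs1.

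Lane and chromosome moved with part of these values. Lane 5 of the sequencer held 2 of the shSCR libraries, and lane 6 the remaining 4 libraries. With lane as a covariate, 19 members were higher and 2 lower, and Pmvk lost its call at 0.15 (edgeR adjusted p = 0.210). That fit, like the fit of lane 6 alone, sets the shPHGDH libraries against 1 shSCR library, replicate 3. The 2 fits are thus not separate checks. In both, Idi1 was at 0.53 and Sqle at 0.70, against 0.73 and 0.61 in the main fit. On GRCm38 the median log2 fold change of tested genes was 0.51 on chromosome 14, 0.28 on chromosome 15, 0.25 on chromosome 13 and 0.14 on chromosome 9, and -0.25 on chromosome 8 and -0.14 on chromosome 18. Fdft1 lies on chromosome 14, Sqle and Srebf2 on 15, Hmgcs1 and Idi1 on 13, Sc5d on 9, Msmo1 and Mvd on 8 and Stard4 on 18. Relative to its chromosome, Fdft1 was higher by 0.22, Sqle by 0.33, Srebf2 by 0.17, Hmgcs1 by 0.58, Idi1 by 0.48, Sc5d by 0.51, Scd1 by 0.90 and Msmo1 by 0.62 on the log2 scale. All of these stayed called in an edgeR fit with the chromosome median as an offset. In that fit 21 members were higher and 2 lower: Acat2 and Mvd gained a call, with 0.13 (adjusted p = 0.0388) and 0.34 (adjusted p = 0.000151), Pmvk lost its call, Acaca lost its call, and Scap was called lower at -0.21 (adjusted p = 4.27e-05). With the median of the 50 nearest tested genes in place of the chromosome, 19 were higher and 2 lower, and Pmvk, at 0.03 (adjusted p = 0.730), stood at the level of its neighbours. Whether the shift of whole chromosomes had a part in the members' changes was not tested beyond these fits.

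**Figure D3:**
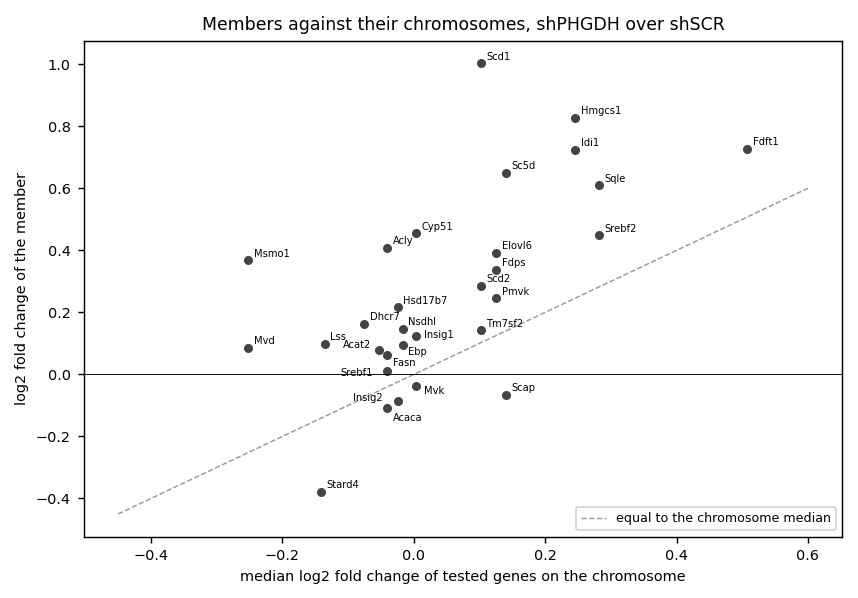
Log2 fold change of each tested member, shPHGDH over shSCR, against the median log2 fold change of the tested genes on its chromosome, with a dashed line where the values are equal. Fdft1 stands at 0.73 over a chromosome at 0.51, and Msmo1 at 0.37 over a chromosome at -0.25.

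Per kilobase of exon the members covered a wide range of levels, and those called higher included both the abundant Scd2 and the scarce Idi1. Idi1 ranked 29 in shSCR cells, at 5.81 ± 0.514 CPM per kilobase in shPHGDH and 3.48 ± 0.477 in shSCR cells (SD, n = 3 each). Scd2 was highest, at 283 ± 8.69 CPM per kilobase in shPHGDH and 232.5 ± 8.18 in shSCR cells, followed by Fasn at 139 ± 3.41 and 133 ± 4.49 and Acly at 112.5 ± 1.75 and 84.8 ± 1.24 (SD, n = 3 each). Hmgcs1 ranked 5 in shSCR cells, at 62.0 ± 1.72 CPM per kilobase in shPHGDH and 34.9 ± 0.481 in shSCR cells. Below Tm7sf2, at 0.913 ± 0.149 in shPHGDH and 0.846 ± 0.0496 in shSCR cells, only Abca1 was lower.

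Counts of genes around the members stand against 30.1% of all tested genes that rose and 29.6% that fell. Of 9 further sterol and isoprenoid genes, 6 rose and 1 fell. Npc2, which hands cholesterol out of lysosomes, averaged 173 ± 4.47 CPM in shPHGDH and 112 ± 2.63 CPM in shSCR cells (SD, n = 3 each), a log2 fold change of 0.62. Of 6 genes that cleave SREBP or degrade sterol sensors, 3 rose and 2 fell. Of 15 genes of fatty acid supply, elongation and desaturation, 5 rose and 5 fell, with a median of -0.01, and of 11 fatty acid oxidation genes 3 rose and 1 fell. Of 4 tested oxysterol receptor and target genes, 2 rose, the targets Mylip and Lpcat3, and 1 fell, the receptor gene Nr1h2. Endothelial markers summed to 89.2 to 91.4 CPM in shPHGDH and 59.6 to 65.6 CPM in shSCR cells, nearly all of it Eng, with only 1 of 10 genes at 1 CPM. Leukocyte markers summed to 13.3 to 15.0 and 9.07 to 10.5 CPM, and fibroblast markers to 10.2 to 11.8 and 6.84 to 8.14 CPM. Their part in the result was not tested.

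In MDA-MB-231, the libraries labelled PHGDH-overexpressing had higher RNA of nearly the whole pathway. Of 30 members tested by edgeR, 27 were called higher, 0 lower, also at an unadjusted p under 0.05, and 3 neither, while DESeq2 called 25 higher and 0 lower. Over all genes tested, 21.6% were called higher and 22.9% lower. The median log2 fold change was 0.56 over the members and -0.01 over all genes. In 25 members every labelled library lay above every control, against 26% of all genes, and in 5 the groups overlapped. With library totals in place of TMM, 26 members were called higher, and calls over all genes were 38.4% higher, against 48.5% with TMM. Beside these values, epithelial markers summed to 1233 to 1383 CPM in the labelled libraries and 859 to 877 CPM in the controls, and endothelial markers to 129 to 137 and 158.5 to 161 CPM. Their part in the result was not tested.

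All 8 members from acetyl-CoA to squalene were higher in the labelled libraries. FDFT1 was at 181, 170.4 and 182 CPM in the labelled libraries and at 99.5, 93.2 and 97.0 CPM in the controls. MVK, the first of the mevalonate kinases, was at 49.3, 45.03 and 47.5 CPM in the labelled libraries and at 31.8, 25.6 and 29.4 CPM in the controls. HMGCS1 was at 52.9, 60.7 and 50.6 CPM in the labelled libraries and at 35.9, 35.05 and 35.5 CPM in the controls. The groups were separate in all 3, with log2 fold changes of 0.88 for FDFT1 (SE 0.059, edgeR adjusted p = 7.14e-11), 0.70 for MVK (SE 0.081, adjusted p = 3.42e-07) and 0.63 for HMGCS1 (SE 0.076, adjusted p = 6.93e-07). FDPS, IDI1, MVD, ACAT2 and PMVK were higher by 0.41, 0.40, 0.31, 0.23 and 0.21, with no overlap. The edgeR call of PMVK was lost without replicate 1 or 3 of either group (adjusted p of 0.0612 to 0.135), and that of MVD without control replicate 3 (adjusted p = 0.0501).

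All 10 members from squalene to cholesterol were higher in the labelled libraries, led by EBP. EBP, the sterol isomerase, was at 101, 104 and 109 CPM in the labelled libraries and at 36.8, 40.0 and 42.7 CPM in the controls. LSS, which closes the sterol rings, was at 198, 175 and 200.2 CPM in the labelled libraries and at 100.0, 92.0 and 91.4 CPM in the controls. DHCR7, a last reductase of the route, was at 135, 130 and 141 CPM in the labelled libraries and at 70.5, 65.5 and 68.8 CPM in the controls. Each labelled library was thus far above each control in these genes, with log2 fold changes of 1.39 for EBP (SE 0.070, edgeR adjusted p = 5.93e-13), 1.01 for LSS (SE 0.065, adjusted p = 3.24e-11) and 0.99 for DHCR7 (SE 0.062, adjusted p = 2.38e-11).

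Further members of the same stretch were also separate between groups. MSMO1 was at 107, 110.2 and 104.5 CPM in the labelled libraries and at 60.2, 56.8 and 60.0 CPM in the controls. CYP51A1 was at 155, 151 and 139 CPM in the labelled libraries and at 94.2, 82.0 and 85.9 CPM in the controls. SQLE was at 30.8, 30.35 and 28.8 CPM in the labelled libraries and at 21.3, 20.0 and 18.2 CPM in the controls. These 3 enzymes act in order on squalene, lanosterol and its methyl groups, and differed by 0.86 (MSMO1), 0.76 (CYP51A1) and 0.59 (SQLE), with edgeR adjusted p between 2.57e-10 and 5.11e-06. NSDHL, which removes a carboxyl group from the sterol, was at 57.9, 50.8 and 57.6 CPM in the labelled libraries and at 39.0, 38.6 and 38.9 CPM in the controls. HSD17B7 was at 12.9, 15.1 and 13.9 CPM in the labelled libraries and at 9.02, 9.10 and 10.2 CPM in the controls. Both were higher with no overlap, by 0.51 and 0.57. TM7SF2 and SC5D were higher by 0.40 and 0.25.

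Of the regulators, INSIG1 showed the largest change of the 30 members. INSIG1 was at 265, 268 and 229 CPM in the labelled libraries and at 90.7, 75.2 and 82.1 CPM in the controls, a log2 fold change of 1.62 (SE 0.073, edgeR adjusted p = 8.89e-14). SREBF1 was at 107, 101 and 115 CPM in the labelled libraries and at 58.4, 52.0 and 53.2 CPM in the controls, a log2 fold change of 0.98 (SE 0.069, adjusted p = 1.49e-10). In both genes the lowest labelled library was well above the highest control. SREBF2 was higher by 0.47, and SCAP and INSIG2, at 0.02 each, were not called. The transport genes were less firm: ABCA1 was at 6.30, 6.22 and 5.35 CPM in the labelled libraries and at 5.72, 2.90 and 3.46 CPM in the controls, with 1 control inside the labelled range. Its log2 fold change of 0.54 (SE 0.190, adjusted p = 0.0236) lost its call with DESeq2 and without labelled replicate 1 or 2 or control replicate 2 or 3 (adjusted p of 0.0568 to 0.137). STARD4 was higher by 0.28, with overlapping groups, and lost its edgeR call without labelled replicate 2 (adjusted p = 0.0696) or control replicate 3 (adjusted p = 0.0697).

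Of the fatty acid genes, 4 of 5 were higher in the labelled libraries. SCD, the human desaturase matching Scd1, was at 801, 755 and 779 CPM in the labelled libraries and at 332, 246 and 261 CPM in the controls. FASN was at 504, 433 and 544 CPM in the labelled libraries and at 283, 237 and 234 CPM in the controls. ACACA was at 179.9, 164 and 188 CPM in the labelled libraries and at 125, 103 and 96.4 CPM in the controls. ACLY completes the set of enzymes that lead to palmitate, at 473, 417.5 and 474.5 CPM in the labelled libraries and 338, 293 and 310.4 CPM in the controls. None of the 4 overlapped, and the log2 fold changes were 1.48 for SCD (SE 0.080, edgeR adjusted p = 1.93e-12), 0.97 for FASN (SE 0.078, adjusted p = 1.19e-09), 0.71 for ACACA (SE 0.078, adjusted p = 1.68e-07) and 0.54 for ACLY (SE 0.065, adjusted p = 6.07e-07). ELOVL6 averaged 83.9 ± 10.9 CPM in the labelled libraries and 84.3 ± 0.795 CPM in the controls (SD, n = 3 each) and was not called.

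**Figure D4:**
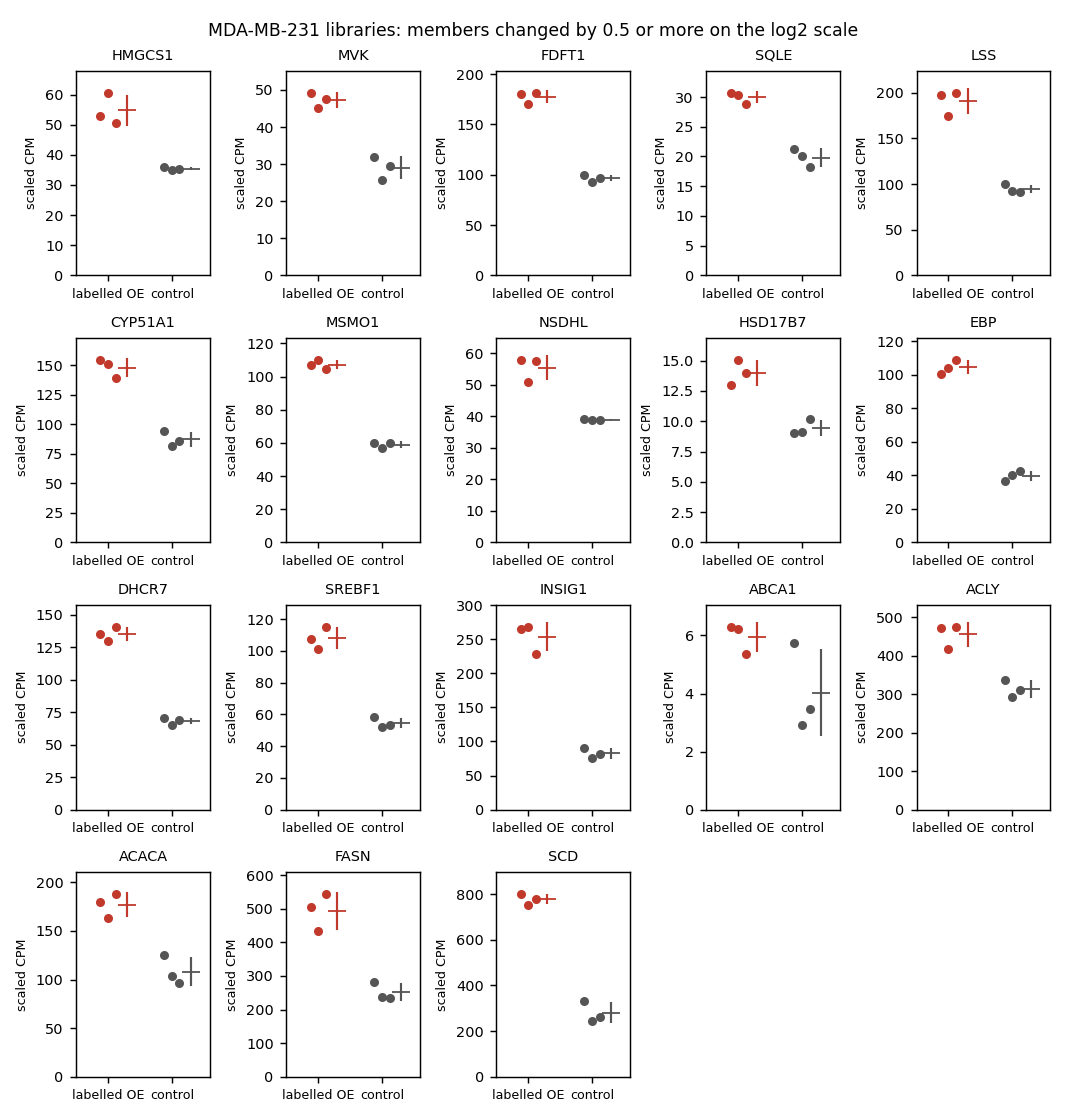
Scaled CPM of the 18 members changed by 0.5 or more on the log2 scale in each of the 3 MDA-MB-231 libraries labelled PHGDH-overexpressing (labelled OE, left) and 3 control libraries (right), as points, with the mean and SD as a cross. The groups are separate in every panel except ABCA1, where the control library at 5.72 CPM lies within the labelled range.

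Outside the members, 8 of 15 genes of fatty acid supply, elongation and desaturation were higher and 2 lower in the labelled libraries, against 21.6% and 22.9% of all tested genes. SLC25A1, the mitochondrial citrate carrier, averaged 82.1 ± 5.74 CPM in the labelled libraries and 45.5 ± 3.01 CPM in the controls, and FADS2, a desaturase of polyunsaturated fatty acids, 337 ± 22.0 and 185 ± 9.42 CPM (SD, n = 3 each). Of 9 further sterol and isoprenoid genes, 3 were higher and 2 lower. Of 6 SREBP processing genes 3 were higher and 1 lower. Among 4 oxysterol receptor and target genes 2 were higher and 1 lower, and of 11 fatty acid oxidation genes 4 were higher and 2 lower.

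Set side by side, 18 members were higher in shPHGDH 4T1 cells and in the labelled MDA-MB-231 libraries, which is 18 of the 20 higher in the knockdown and 18 of the 27 higher in MDA-MB-231. Of all tested genes, 30.1% were called higher in the knockdown and 21.6% in MDA-MB-231. The share of all genes higher in both is not given here, so this overlap has no background to stand against. Stard4 and Acaca fell in the knockdown and were higher in MDA-MB-231. Acat2, Mvk, Mvd, Tm7sf2, Ebp and Srebf1 were called in MDA-MB-231 but not in the knockdown, and Elovl6 in the knockdown but not in MDA-MB-231, where Scd2 had no entry. Scap and Insig2 were called in neither experiment. Srebf1 differed by 0.01 in 4T1 and 0.98 in MDA-MB-231, Ebp by 0.10 and 1.39, and Insig1 by 0.12 and 1.62. The experiments share no library, and the difference between them was not tested.

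In co-culture, 5 of 7 measured genes from mevalonate to squalene and 2 of 9 from squalene to cholesterol were at least 1.5-fold higher in 4T1 cells grown with Bend3 than in 4T1 alone. In EMT6.5 cells grown with Bend3, 7 of 7 and 9 of 10 were at least 1.5-fold lower than in EMT6.5 alone. With 1 library per condition there is no test. A member was counted when its ratio reached 1.5-fold and its mean was at least 5 CPM, and each ratio has an exact 95% interval that covers counting error only. In 4T1, 13 of 28 measured members were higher and 2 lower, against 23% and 25.1% of all genes, with a median ratio of 1.47 over the members and 0.970 over all genes. In EMT6.5, 1 of 30 was higher and 23 lower, against 13.3% and 17.2% of all genes, with a median ratio of 0.370 over the members and 0.977 over all genes. Of the 28 members measured in both lines, 11 were higher in 4T1 and lower in EMT6.5, against 3.08% of all genes, Msmo1 was lower in both, against 5.76%, none was higher in both, against 4.74%, and none was lower in 4T1 and higher in EMT6.5, against 1.76%.

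In the mevalonate stretch 5 of 7 measured members were higher in 4T1 and lower in EMT6.5, against 3.08% of all genes. Among them, Mvk and Pmvk had ratios of 1.99 and 1.51 in 4T1 and of 0.420 and 0.382 in EMT6.5. The 4T1 ratio of Pmvk (1.17 to 1.94) lay just over the counting limit. Hmgcs1 was at 97.2 CPM in 4T1 with Bend3 and 43.7 CPM in 4T1 alone, a ratio of 2.22 (1.87 to 2.65), and at 61.5 CPM in EMT6.5 with Bend3 and 275 CPM in EMT6.5 alone, a ratio of 0.224 (0.198 to 0.252). Acat2 was at 67.7 CPM in 4T1 with Bend3 and 19.0 CPM in 4T1 alone, and at 47.2 CPM in EMT6.5 with Bend3 and 225 CPM in EMT6.5 alone. Fdft1 was at 20.1 CPM in 4T1 with Bend3 and 7.58 CPM in 4T1 alone, and at 11.5 CPM in EMT6.5 with Bend3 and 44.0 CPM in EMT6.5 alone. In all 3 genes EMT6.5 alone stood highest of the 4 tumour libraries, and 4T1 alone lowest. Mvd and Fdps were within 1.5-fold in 4T1, at ratios of 1.30 and 0.938, and lower in EMT6.5, at 0.290 and 0.282. Idi1 had at most 1 count in any of the 7 libraries, although it reached 10.9 CPM or more in every knockdown library, and entries outside any gene count, such as those aligned to several places, made up 60.2% to 66% of all entries in the co-culture files. Their part in the absence of Idi1 was not tested.

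Between squalene and cholesterol, Dhcr7 diverged between the lines and Msmo1 was lower in both. Dhcr7 was at 61.8 CPM in 4T1 with Bend3 and 7.36 CPM in 4T1 alone, a ratio of 8.39 (5.84 to 12.4), and at 19.4 CPM in EMT6.5 with Bend3 and 73.6 CPM in EMT6.5 alone, a ratio of 0.264 (0.210 to 0.328). Msmo1 was at 101 CPM in 4T1 with Bend3 and 213 CPM in 4T1 alone, a ratio of 0.475 (0.424 to 0.532), and at 64.2 CPM in EMT6.5 with Bend3 and 413 CPM in EMT6.5 alone, a ratio of 0.156 (0.138 to 0.175). None of these 4 intervals reaches 1. Sqle, Lss, Hsd17b7 and Sc5d were within 1.5-fold in 4T1 and lower in EMT6.5, at ratios of 0.298, 0.256, 0.183 and 0.442. Cyp51 was at 58.6 CPM in 4T1 with Bend3 and 39.3 CPM in 4T1 alone, and at 21.3 CPM in EMT6.5 with Bend3 and 157 CPM in EMT6.5 alone. Its ratio of 1.49 in 4T1 lay just under the counting limit. Ebp was within 1.5-fold in both lines, at ratios of 1.25 in 4T1 and 1.07 in EMT6.5.

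Among regulators and carriers, Insig1 and Stard4 followed the enzymes and Abca1 did not. Insig1 was at 15.8 CPM in 4T1 with Bend3 and 3.12 CPM in 4T1 alone, and at 4.91 CPM in EMT6.5 with Bend3 and 30.4 CPM in EMT6.5 alone. Stard4 was at 42.9 CPM in 4T1 with Bend3 and 9.15 CPM in 4T1 alone, and at 49.0 CPM in EMT6.5 with Bend3 and 116 CPM in EMT6.5 alone. Srebf1 was higher in 4T1, at 69.0 CPM with Bend3 and 17.9 CPM alone, and within 1.5-fold in EMT6.5, at 45.8 CPM with Bend3 and 40.1 CPM alone. Srebf2 had a ratio of 1.40 in 4T1 and 0.447 in EMT6.5, while Scap and Insig2 stayed within 1.5-fold in both. Abca1 was at 53.8 CPM (263 counts) in EMT6.5 with Bend3 and 0.124 CPM (1 count) in EMT6.5 alone, a ratio of 435 with a counting interval of 77.5 to 17260. In 4T1 it was at 2.25 CPM (10 counts) with Bend3 and 0.446 CPM (2 counts) alone, under the minimum for counting.

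Abca1 is abundant in Bend3, so its level was set beside endothelial markers. The Bend3 library sorted from the same EMT6.5 co-culture held 152 CPM of Abca1, and the EMT6.5 cells of that co-culture held 35.3% of that level. The same share was 0.474% for Pecam1, 1.02% for Kdr and 0.809% for Cdh5. The sum of 10 endothelial markers was 110 CPM in EMT6.5 with Bend3 and 105 CPM in EMT6.5 alone, and 168 CPM in 4T1 with Bend3 and 79.6 CPM in 4T1 alone. Of 5 further oxysterol receptor and target genes, 3 were higher by 1.5-fold in EMT6.5 with Bend3, against 13.3% of all genes. Mylip was at 61.1 CPM with Bend3 and 23.21 CPM alone, and Abcg1 at 35.2 CPM with Bend3 and 10.5 CPM alone, and Nr1h3 at 8.58 CPM with Bend3 and 3.09 CPM alone. Nr1h2 and Lpcat3 were within 1.5-fold, with ratios of 0.999 and 0.938. The fibroblast markers of EMT6.5, mostly collagen, summed to 1783 CPM with Bend3 and 2894 CPM alone, and their part was not tested.

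Of the fatty acid genes, 3 of 6 were higher and 1 lower in 4T1, against 23% and 25.1% of all genes. In EMT6.5, 4 of 6 were lower and 0 higher, against 17.2% and 13.3% of all genes. Scd2 was at 909 CPM in 4T1 with Bend3 and 384 CPM in 4T1 alone, and at 834 CPM in EMT6.5 with Bend3 and 1545 CPM in EMT6.5 alone. Elovl6 was at 157 CPM in 4T1 with Bend3 and 58.7 CPM in 4T1 alone, and at 66.8 CPM in EMT6.5 with Bend3 and 107 CPM in EMT6.5 alone. Scd2 and Elovl6 were thus higher with Bend3 in 4T1 and lower with Bend3 in EMT6.5. Scd1 was at 56.2 CPM in 4T1 with Bend3 and 25.4 CPM in 4T1 alone, a ratio of 2.21, and nearly level in EMT6.5, at 281 CPM with Bend3 and 313 CPM alone. Acaca was lower in 4T1, with a ratio of 0.579 (0.466 to 0.717), and had a ratio of 0.724 in EMT6.5. Acly and Fasn had ratios of 1.15 and 1.45 in 4T1 and 0.320 and 0.495 in EMT6.5. Of 13 measured genes of fatty acid supply, elongation and desaturation, 7 were lower and 1 higher in EMT6.5. In 4T1, 2 of 14 were higher and 1 lower, and both counts stand against the same shares of all genes.

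**Figure D5:**
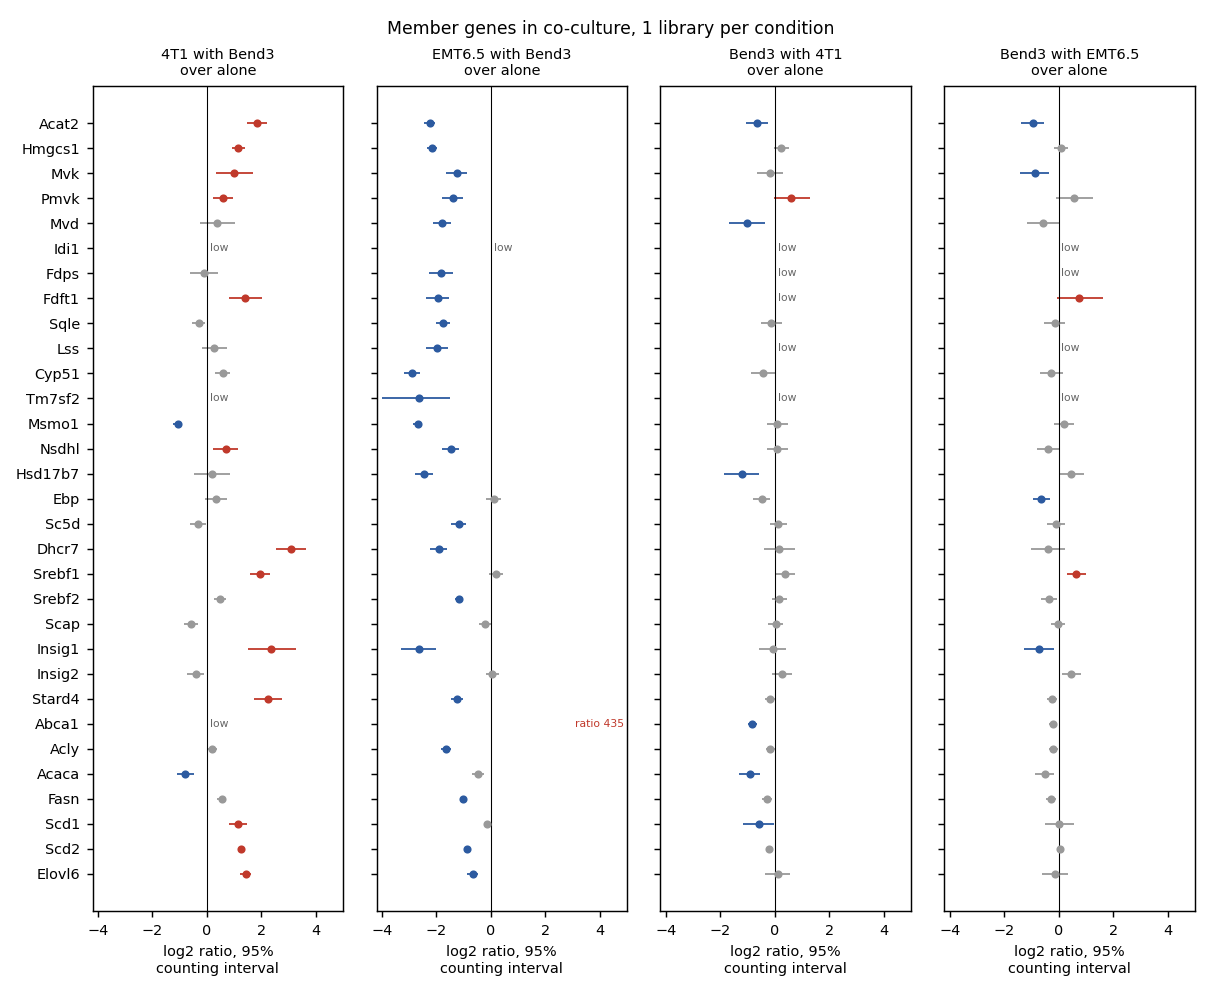
Log2 ratio of each member, co-culture over the same line alone, for 4T1, EMT6.5 and the Bend3 cells of each co-culture, with 95% counting intervals and 1 library per condition. Red and blue mark ratios of at least 1.5-fold higher and lower, grey those between, and "low" a mean under 5 CPM. Abca1 in EMT6.5 lies off the scale at 435.

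The lines also differed when grown alone, with 1 library each and no test. Alone, EMT6.5 held at least 1.5-fold more than 4T1 in 23 of 28 members and less in none, against 28.1% and 26.8% of all genes, with a median ratio of 2.89 over the members and 0.991 over all genes. After co-culture, EMT6.5 held more than 4T1 in 5 of 29 members and less in 12, against 23.1% and 21.9% of all genes, with a median ratio of 0.765. The co-culture ratios and these ratios use the same 4 libraries and are not independent of each other.

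Across both lines together, no member was called in a fit where the lines serve as the replicates of co-culture. Such a fit looks for a change shared by the lines. Members that moved in opposite directions could hardly be called by it, so their lack of a call says nothing on a change in either line. An edgeR fit with the line as a covariate left 1 residual degree of freedom and called 0 of 30 members in either direction, against 0.167% of all genes higher and 0.125% lower. At an unadjusted p under 0.05 it held 4 members, Abca1, Srebf1, Sqle and Msmo1, and 966 of 12005 genes. DESeq2, and edgeR with no filter on low counts, each called Abca1 higher and Msmo1 lower. Over all 20116 genes, DESeq2 called 44 higher and 45 lower, and edgeR with no filter 101 higher and 103 lower.

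In Bend3 cells most members were within 1.5-fold of their level alone. With 4T1, 1 of 26 measured members was higher and 6 lower, against 10.3% and 7.11% of all genes, and with EMT6.5, 2 of 27 were higher and 4 lower, against 9.3% and 7.7%. Acat2 was lower with both partners, against 3% of all genes, at 17.1 CPM with 4T1, 13.8 CPM with EMT6.5 and 26.7 CPM alone, and both ratios use the same library of Bend3 alone. No member was higher with 4T1 and lower with EMT6.5, against 0.213% of all genes, or the reverse, against 0.0304%. Mvd, Hsd17b7, Abca1, Acaca and Scd1 were the others lower with 4T1, and Mvk, Ebp and Insig1 the others lower with EMT6.5. Pmvk was higher with 4T1, with an interval that reaches 1 (0.970 to 2.45), and Fdft1 (0.952 to 3.09) and Srebf1 (1.23 to 1.99) with EMT6.5. Abca1 was at 100.5 CPM with 4T1, 152 CPM with EMT6.5 and 178 CPM alone. Hmgcs1, at 54.8 CPM with 4T1, 49.1 CPM with EMT6.5 and 46.2 CPM alone, and Scd2, at 531, 641 and 614 CPM in the same order, differed by less than 1.5-fold. A joint edgeR fit of both co-cultures, in which the lone library of Bend3 alone is assumed to vary like them, called 0 of 30 members and 0 of 12410 genes, with 3 members (Acaca, Acat2 and Ebp) and 953 genes at an unadjusted p under 0.05, and DESeq2 called 0 members.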

How the data were processed

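RNA of cultured cell lines was sequenced as stranded mRNA libraries with 50 bp single-end reads, per the labels' protocols. Per the submitters' processing notes, reads were trimmed with Trim Galore 0.5.0, aligned with HISAT2 2.1.0 and counted with HTSeq, with GRCm38 as the mouse genome. For MDA-MB-231 the build is not given in the sources used here, nor are the gene models or the treatment of strand. Deposited values are raw gene counts, as the authors made them, and summary lines stayed out of library sizes. In the deposited tables, 10 columns of libraries outside these samples were not used.

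The counts were fitted with edgeR 4.0.16 in R 4.3.3 (TMM scaling, default filter on low counts, quasi-likelihood F-test, Benjamini-Hochberg adjusted p under 0.05 over all tested genes), for 3 against 3 libraries in the knockdown and in MDA-MB-231, with no block. CPM are counts over TMM-scaled library sizes. Co-culture ratios have exact conditional binomial 95% intervals. Chromosome offsets used GENCODE vM21, which placed 95.5% of knockdown symbols, and promoters are from RefSeq (GRCm38.p6). The code was tested on simulated data. Alternatives were library totals, DESeq2 1.42.0 and its size factors, no filter, the replicate block, lanes and leaving out each replicate; the fit relative to the 50 nearest genes was chosen after seeing the data.

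The members and all gene lists were chosen with earlier results of these data known. Values in every library are given for members called with a log2 fold change of at least 0.5, and for members changed the same way in both tumour lines or both Bend3 co-cultures; other co-culture values were chosen after they were seen. Depth per library and the counting error it leaves are given with the results.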

Additional observations from a re-analysis of the deposited data

Results flagged for a closer look

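Of 28 members measured in both lines, 11 were at least 1.5-fold higher in 4T1 and lower in EMT6.5 with Bend3, against 3.08% of all genes. The ratios are of co-culture over the same line alone. Counting intervals took in changes under 1.5-fold for Pmvk (1.17 to 1.94), Nsdhl (1.17 to 2.22) and Mvk (1.26 to 3.20) in 4T1. The same held for Elovl6 (0.551 to 0.713) in EMT6.5. The difference between the lines was not tested, since each condition has 1 library.

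In the mevalonate stretch, the ratio was 3.57 in 4T1 and 0.210 in EMT6.5 for Acat2, 2.22 and 0.224 for Hmgcs1, 1.99 and 0.420 for Mvk, 1.51 and 0.382 for Pmvk, and 2.65 and 0.260 for Fdft1. Among later sterol enzymes it was 1.61 in 4T1 and 0.358 in EMT6.5 for Nsdhl, and 8.39 and 0.264 for Dhcr7. For Insig1 it was 5.05 in 4T1 and 0.161 in EMT6.5, and for Stard4 4.68 and 0.424. For the fatty acid genes it was 2.37 in 4T1 and 0.540 in EMT6.5 for Scd2, and 2.68 and 0.627 for Elovl6.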

How the results depend on the processing

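Without 1 replicate at a time, the knockdown fit called 17 to 19 members higher and 2 to 3 lower, and the MDA-MB-231 fit 23 to 26 higher and 0 lower. Deviations of same-numbered libraries had correlations of -0.05 to 0.04. With 3 libraries per group, these values cannot settle whether the cultures were paired. With the replicate block, 19 members were higher and 2 lower in the knockdown, and 27 higher and 0 lower in MDA-MB-231. Library totals gave 16 higher and 3 lower in the knockdown, and DESeq2 18 and 2. Lane as a covariate gave 19 and 2, with the group difference resting on 1 shSCR library. In the joint fit of the tumour lines, no filter and DESeq2 each gave 1 member higher and 1 lower, where the main fit gave 0, and the cause was not tested. The count of 1 member higher in Bend3 with 4T1 was 0 with library totals, 0 with DESeq2-type size factors, and 2 with no filter.

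Only uncalled members turned sign, at values near 0. Mvk was at 0.0068 without shPHGDH replicate 1, and ranged down to -0.0626 over the fits that leave out 1 replicate. Srebf1 was at -0.0285 with library totals, -0.0238 without shPHGDH replicate 3 and -0.0307 without shSCR replicate 3, with 0.0422 the highest over such fits. Scap was at 0.0195 with lane as a covariate and 0.02 in lane 6 alone. SCAP was at -0.0377 with library totals, and at -0.0146 and -0.0253 without labelled replicates 1 and 3, with 0.1126 the highest. INSIG2 was at -0.0394 with library totals, -0.0735 without labelled replicate 2 and -0.0274 without control replicate 3, with 0.0691 the highest. ELOVL6 was at 0.0009 with DESeq2, and at 0.0443 and 0.0563 without labelled replicates 1 and 3, with -0.1136 the lowest.

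Members whose call was lost under some alternative were Pmvk, Lss, Nsdhl, Insig1, Acaca and Fasn in the knockdown, and PMVK, MVD, STARD4 and ABCA1 in MDA-MB-231. At the depth of the co-culture libraries, members near 5 CPM rest on few counts, and a change under 1.5-fold was often within the counting interval.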
